A study of Homo sapiens with 15 samples.

Results

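The mitotic cyclins and kinases described here are 8 genes, namely CDK1, CCNA2, CCNB1, CCNF, CDC20, AURKA, WEE1 and FBXO5, of 14884 genes measured. They were chosen by name from the platform's table of probe sets and genes. Each of the 8 had 1 named probe set on the array, so that no choice between probe sets was needed.

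Total RNA of HEK293T cells, a human embryonic kidney line that carries the simian virus large T antigen, was hybridised to 15 whole-transcript arrays, 3 for each of 5 siRNAs. The groups were LOC550643 siRNA, a pool of 4 against the gene of the P-body peptide NoBody; Dcp2 siRNA, against the mRNA decapping enzyme; DcpS siRNA, against the scavenger enzyme that degrades the cap left after decay; GAPDH siRNA, against a glycolytic enzyme; and a non-silencing siRNA without a human target, the reference of the study. In every group, non-silencing included, actinomycin D at 1 ug per mL, which blocks transcription, was added 48 hours after transfection and left for 4 hours. A level measured here therefore combines the level before the drug with decay during it, and these cannot be told apart.

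Passage from G2 into mitosis is driven by CDK1 bound to cyclin A or cyclin B. WEE1 holds the kinase back by phosphorylating it, and the anaphase-promoting complex (APC/C), a ubiquitin ligase activated by CDC20, later destroys the cyclins. Many genes of this machinery are transcribed mainly in late S, G2 and M phase, through promoters that carry CCAAT boxes, bound by NF-Y, and a cell cycle homology region (CHR), bound by the MuvB complexes with B-MYB, FOXM1 or the DREAM proteins. In a whole culture, more cells in G2 or mitosis and more transcript per cell cannot be told apart.

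Promoter stretches are shown for the 5 genes that passed the test against non-silencing siRNA in at least 1 comparison, since their promoters are the best-known shared feature of the family. Sequences are from RefSeq (build GRCh38.p14), 5′ to 3′ on the gene's strand, with the CCAAT box (CCAAT, or its complement on the other strand) and the CHR (TTTGAA, or its complement) in capitals. CCNA2 (chr4:121823884-121824003, minus strand), CCNB1 (chr5:69167030-69167149, plus), CCNF (chr16:2429327-2429446, plus) and CDC20 (chr1:43358861-43358980, plus) are shown over the 120 bases before the start of transcription, and CDK1 (chr10:60778394-60778423, plus) over 30 bases that end 55 bases before the downstream of its 2 starts.
CCNA2: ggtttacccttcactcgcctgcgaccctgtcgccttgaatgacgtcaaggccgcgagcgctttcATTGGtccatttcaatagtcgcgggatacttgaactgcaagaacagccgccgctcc
CCNB1: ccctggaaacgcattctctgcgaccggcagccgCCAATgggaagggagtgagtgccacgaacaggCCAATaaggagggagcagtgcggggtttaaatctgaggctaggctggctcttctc
CCNF: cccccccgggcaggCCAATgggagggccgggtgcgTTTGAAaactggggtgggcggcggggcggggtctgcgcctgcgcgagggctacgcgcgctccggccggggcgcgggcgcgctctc
CDC20: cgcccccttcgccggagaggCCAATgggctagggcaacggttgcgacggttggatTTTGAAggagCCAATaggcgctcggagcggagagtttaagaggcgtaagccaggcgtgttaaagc
CDK1: gctctgATTGGctgcTTTGAAagtctacgg

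Both motifs lie close together in CCNF, CDC20 and CDK1. The CHR letters begin 85, 65 and 69 bases before the start in the stretches shown, and a CCAAT box lies upstream of each, beginning 106, 100 and 78 bases before it. CCNA2 and CCNB1 hold CCAAT boxes in the stretch shown but no TTTGAA. Windows of 300 bases were found for 6 of the 8 genes, with 2 starts each for CDK1 and FBXO5; AURKA and WEE1 were not among them. CCAAT occurred on either strand in 7 of their 8 windows, against 34.6% of all 35116 promoter windows, and in at least 1 window of 6 of these 6 genes. TTTGAA occurred in 5 of the 8 windows, against 15.2%, and in 4 of 6 genes (CDK1, CCNF, CDC20 and FBXO5). The other FBXO5 window held none of the motifs searched. The variant TTCGAA was found in CCNF (1.45% of all windows), the E2F-type motif GCGCGAAA in CDK1 (0.515%), and the TATA motif TATAAA in none of them (11.5%). In the FBXO5 window that held matches the CHR letters begin 40 bases before the start, on the opposite strand. These are matches of letters only, and other known forms of the CHR were not searched, so that a window without TTTGAA may hold one.

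The values are log2 probe set summaries, and a difference of 1 log2 unit is a change of 2-fold. Genes were called changed at a limma adjusted p (Benjamini-Hochberg, over all 14884 genes) under 0.05. Whether replicate arrays stand for separate cultures is not given in the labels, and the p-values then measure only how much these samples differed, technical variation included. DCP2 stood at 28.7% of the non-silencing level with Dcp2 siRNA and GAPDH at 42.6% with GAPDH siRNA (limma adjusted p = 3.15e-06 and 2.70e-05), whereas the knockdown of LOC550643 and DCPS was not analysed here for want of a named probe set. DCP2 was also called lower with DcpS siRNA (-0.54). Of 4 measured HEK293T genes, IRS4 and VIM lay between 7.80 and 9.78, PAX2 between 5.43 and 5.89 and NES between 5.17 and 5.57, and the 5 measured of 12 markers of other cell types (CD14, ALB, PECAM1, KRT5 and GFAP) between 2.85 and 4.98. NEFL and NEFM, the neurofilament genes of the line, were not measured.

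One source of variation touches all results below and is given first. Within groups the arrays differed along a shared axis, the first principal component of the group-centred values, which was computed without any cell cycle gene listed here and held 24.5% of the variance within groups. Only its direction came from group-centred values. The score of an array was read from values not centred by group, so that scores can also hold effects of the siRNAs. Adding the score to a fit may therefore take out part of an siRNA difference. The sign of the axis was set so that a list of immediate early transcripts, JUN and DUSP1 among them, had positive weight on average. These transcripts were also among the genes from which the axis was computed. Closeness to it was ranked among genes with a mean of at least 6 log2 units. The 10 genes that followed the axis most closely were TIPARP, PIM1, MED10, ZNF184, PIP4P1, BRD2, RNF25, DUSP1, BSDC1 and JUN. The 3 arrays of a group ranged from -5.44 to 11.5 on it after LOC550643 siRNA, from 3.88 to 10.6 after Dcp2 siRNA, from -16.7 to 4.43 after DcpS siRNA, from -11.4 to 11.9 after GAPDH siRNA and from -19.9 to 4.08 after non-silencing siRNA. The lowest scores belonged to non-silencing replicate 1 and DcpS replicate 1. Within groups, WEE1 and FBXO5 correlated with the axis at 0.96 and 0.95, CDC20 at 0.83, CCNA2 at 0.79, CDK1 at 0.75, AURKA at 0.61, CCNB1 at 0.49 and CCNF at 0.41, over 15 arrays, against a median of -0.03 over all genes. That median keeps the signs, so it does not show how strongly genes followed the axis in either direction. Of other lists, 35 G2 and M phase genes ran from -0.86 to 0.92 (median 0.69). The 30 G1 and S phase genes ran from -0.87 to 0.79 (median -0.02). The mean of the 8 genes correlated with the axis at 0.91. The score came from these same arrays. A fit that holds it therefore leaves little spread to genes that follow the axis closely, which favours their being called. What the axis stands for was not tested.

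**Figure D1:**
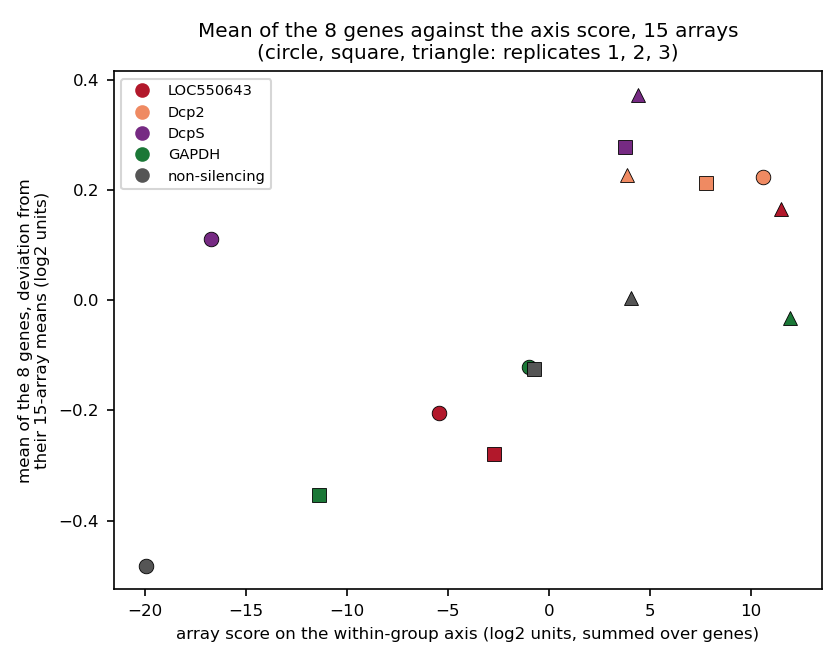
The mean of the 8 genes (deviation from their 15-array means, log2 units) against each array's score on the within-group axis; colours mark the siRNA and shapes the replicate. DcpS replicate 1, at a score of -16.7, lies above arrays of other groups with similar scores, and non-silencing replicate 1 is the lowest on both axes.

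Across the 5 siRNAs, 6 of the 8 members passed limma's moderated F test, which 12.2% of all genes passed. CDK1 had the smallest adjusted p (0.00118), followed by CCNB1 (0.00275), CCNF (0.00288), CCNA2 (0.00610), AURKA (0.0224) and CDC20 (0.0283). WEE1 (limma adjusted p = 0.0799) and FBXO5 (0.0998), the genes closest to the within-group axis, did not pass. The order of the groups was not the same for all genes. CDK1, CCNA2, CCNB1 and CCNF were highest with DcpS and next with Dcp2 siRNA, CDC20, AURKA and FBXO5 were highest with Dcp2 and next with DcpS siRNA, and WEE1 was highest with LOC550643 and next with GAPDH siRNA. Of the 32 steps between neighbouring groups in these orders, 1 passed the test, that between non-silencing and LOC550643 siRNA for CDK1, so that most neighbours could not be separated beyond their spread.

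**Figure D2:**
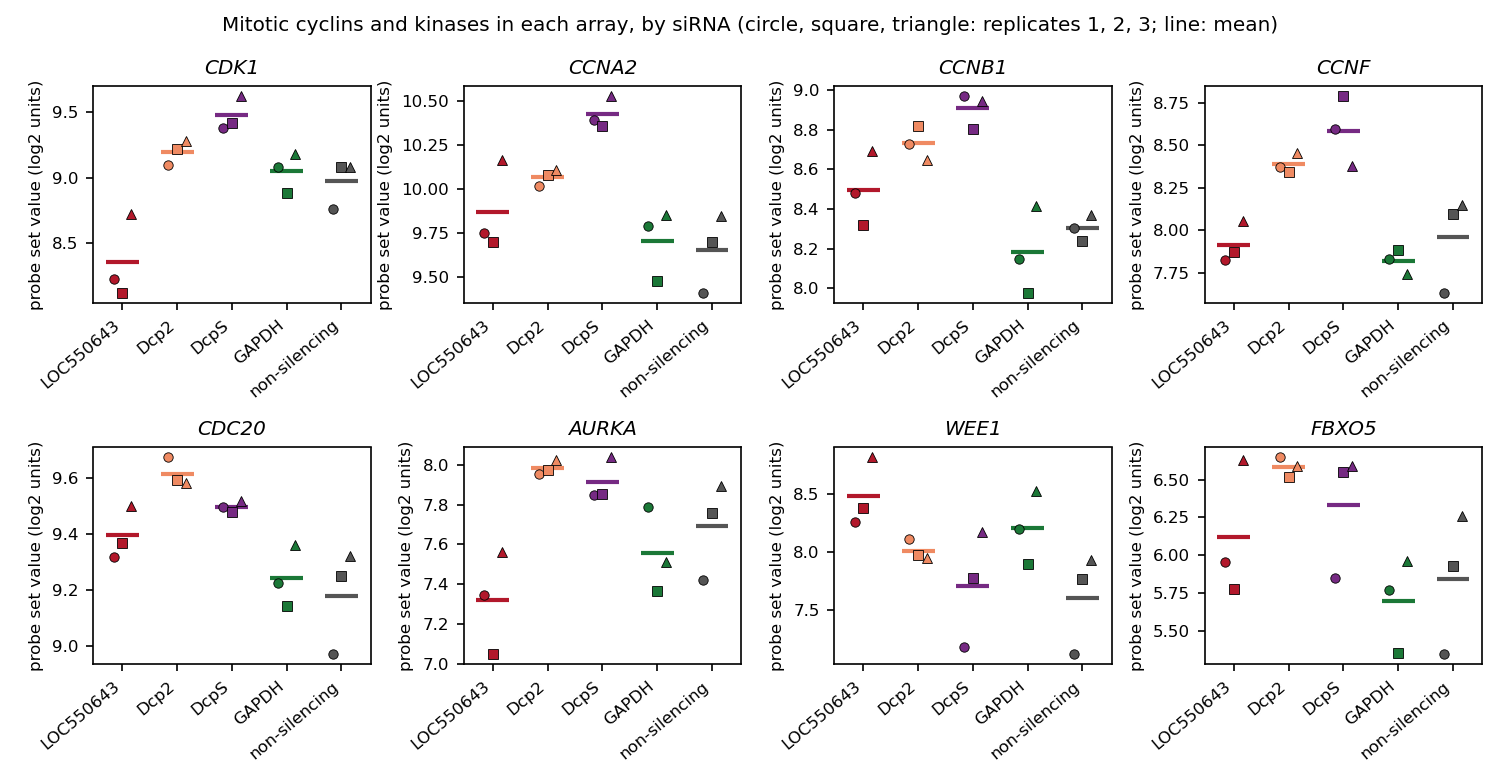
Log2 probe set values of the 8 genes in each of the 15 arrays, by siRNA, with the group mean as a line. CDK1 is lowest in the 3 LOC550643 arrays, the cyclin genes CCNA2 and CCNB1 are highest on average in the DcpS arrays, and the scales differ between panels.

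With DcpS siRNA CCNA2, CCNB1 and CCNF rose against non-silencing siRNA, by 1.71-fold, 1.52-fold and 1.55-fold, 3 of the 8 genes, where 3.61% of all genes were called, 1.76% higher and 1.85% lower. All 8 genes had positive differences, with a median of 0.49 log2 units, against 0.00 over all genes, and the arrays of both groups did not overlap for 5 of the 8, against 18.5% of all genes.

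CCNA2 encodes cyclin A2, the partner of CDK2 in S phase and of CDK1 in G2. It was at 10.39, 10.36 and 10.53 log2 units in the DcpS arrays and at 9.41, 9.70 and 9.85 in the non-silencing arrays, and the lowest DcpS array lay above the highest non-silencing array. The difference was 0.77 (SE 0.14, limma adjusted p = 0.00482). CCNB1 encodes cyclin B1, the partner of CDK1 at the entry into mitosis. It was at 8.97, 8.81 and 8.95 with DcpS and at 8.31, 8.24 and 8.37 with non-silencing siRNA, again without overlap and with a small spread in both groups (SD 0.089 and 0.066, n = 3 each). The difference was 0.60 (SE 0.12, limma adjusted p = 0.00814). CCNF encodes cyclin F, which has no known kinase partner and is the substrate-binding F-box subunit of an SCF ubiquitin ligase. It was at 8.59, 8.79 and 8.38 with DcpS and at 7.63, 8.10 and 8.15 with non-silencing siRNA. The difference was 0.63 (SE 0.13, limma adjusted p = 0.0127), and it missed the threshold without DcpS replicate 2 (0.0674) and with only the 6 compared arrays (0.128).

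CDK1 itself was at 9.39, 9.42 and 9.63 with DcpS and at 8.76, 9.09 and 9.09 with non-silencing siRNA. The groups did not overlap, and the difference of 0.50 (SE 0.14) missed the threshold (limma adjusted p = 0.0693). The fit with replicate number as a block called CDK1 higher as well (limma adjusted p = 0.0259), where 595 of all genes were called. A pairing of arrays by number was not shown. In this comparison DcpS replicate 2 deviated more like non-silencing replicate 3 (correlation 0.18) than like replicate 2 (0.11). CDC20, the APC/C activator, was also without overlap, at 9.50, 9.48 and 9.51 with DcpS against 8.97, 9.25 and 9.32 with non-silencing siRNA (difference 0.32, limma adjusted p = 0.0954). AURKA, the kinase of centrosomes and spindle poles, FBXO5, the APC/C inhibitor of S and G2 phase also called EMI1, and WEE1 had differences of 0.22, 0.49 and 0.11, with overlapping arrays. The DcpS arrays averaged -2.84 on the within-group axis and the non-silencing arrays -5.54. When the score entered the fit as a covariate 6 genes were called higher, CDK1, CCNA2, CCNB1, CCNF, CDC20 and FBXO5, and the differences of CCNA2, CCNB1 and CCNF were 0.74, 0.58 and 0.61. Of all genes, 1003 were called with the score in the fit, against 538 without it. Within groups FBXO5 and CDC20 followed the axis at 0.95 and 0.83, which favours their being called there. When the arrays at the low end of the axis, DcpS replicate 1 and non-silencing replicate 1, were both left out, none of the 8 was called. Of all genes, 241 were called in that fit. CCNA2, CCNB1 and CCNF were then at 0.67, 0.57 and 0.46 (limma adjusted p = 0.0508, 0.0739 and 0.102), with 2 arrays in each of these groups.

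**Figure D3:**
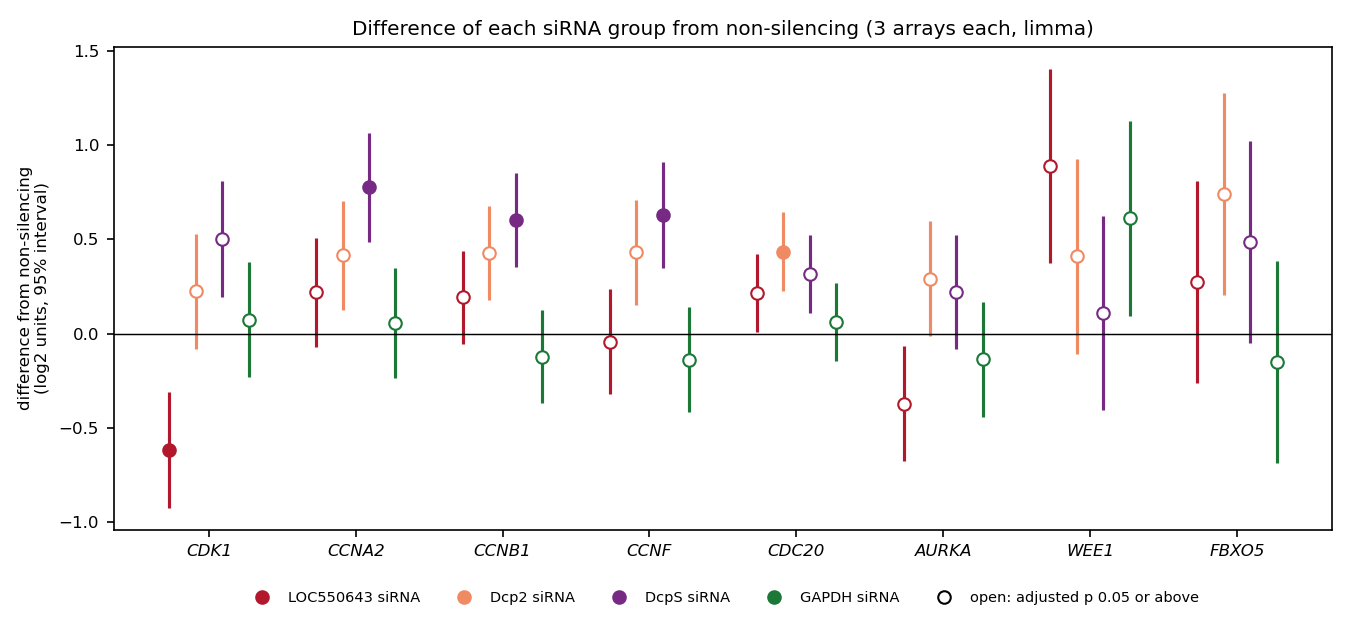
Difference of each siRNA group from non-silencing (log2 units) with the 95% interval of the limma fit; filled points have an adjusted p under 0.05. CDK1 with LOC550643, CDC20 with Dcp2, and CCNA2, CCNB1 and CCNF with DcpS siRNA are filled, and the other 27 of 32 points are open.

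Other mitotic genes were called higher with DcpS siRNA in part. Of 35 measured other G2 and M phase genes, 13 rose and 0 fell, and the median was 0.43 log2 units. Positive differences were found for 33 of them, against 50.5% of all genes, and for 31 with Dcp2 and 29 with LOC550643 siRNA. The largest calls were KIF20A (0.86), the motor of the central spindle, CENPA (0.79), the centromeric histone, HMMR (0.78), a spindle protein, and the kinase gene NEK2 (0.68). Their counts varied with single arrays, with 8 called without non-silencing replicate 1 and 19 without non-silencing replicate 3, 7 without DcpS replicate 1 and non-silencing replicate 1 together, and 1 when only the 6 compared arrays were fitted. Over all genes, in the same order, these fits called 394, 435, 241 and 104, against 538 in the main fit. The 35 genes followed the within-group axis at a median correlation of 0.69. Among 16 partners and regulators of CDK1, 4 rose, namely CCNB2 (0.495), the second B-type cyclin, the activating kinases PLK1 (0.49) and CDK7 (0.49), and the phosphatase gene CDKN3 (0.45). Of 16 measured APC/C subunits and coactivators only FZR1, the coactivator that replaces CDC20 late in mitosis, was called (0.45), and the median of this list was 0.01. Of 16 spindle checkpoint genes and Aurora partners 3 rose, BUB1 (0.54), INCENP (0.40) and AURKB (0.36). The SCF subunits and cyclin F substrates gave 2 calls of 11, FBXW11 (0.47) and SLBP (0.41), and the mitotic transcription factors 1 of 11, RBBP4 (-0.45), with 5 positive differences. Of 30 G1 and S phase genes 26 had negative differences, 2 were called lower, MCM3 (-0.49) and GINS1 (-0.38), and 1 higher, the histone mRNA-binding SLBP. These lists share some genes.

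**Figure D4:**
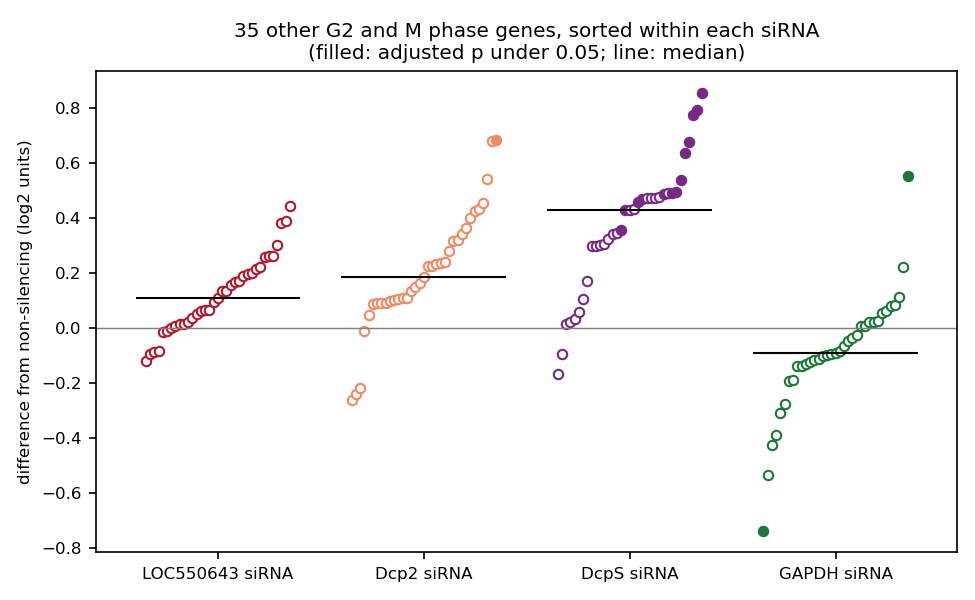
Differences from non-silencing siRNA (log2 units) of the 35 measured other G2 and M phase genes, sorted within each siRNA; filled points passed the test and the line is the median. The median is 0.11 after LOC550643 siRNA, 0.19 after Dcp2 siRNA, 0.43 after DcpS siRNA and -0.09 after GAPDH siRNA.

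CDK1 fell with LOC550643 siRNA, while none of the cyclin genes was called. CDK1 was at 8.23, 8.12 and 8.72 log2 units in the LOC550643 arrays and at 8.76, 9.09 and 9.09 in the non-silencing arrays. The highest LOC550643 array, replicate 3, lay only just below the lowest non-silencing array, replicate 1. The difference was -0.62 (SE 0.14, 95% interval -0.92 to -0.31, limma adjusted p = 0.0417), or 65.2% of the non-silencing level. CDK1 was the 1 gene of the 8 that was called, where 1.57% of all genes were called, 0.658% higher and 0.907% lower. The call was lost when LOC550643 replicate 1 or 2, or any 1 of the 3 non-silencing arrays, was left out (limma adjusted p 0.0501 to 0.160). It was also lost when only the 6 compared arrays were fitted (0.186). Adjusted for the axis score, the difference was -0.71.

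None of the 3 cyclin genes passed the test in the same comparison. CCNA2 and CCNB1 had differences of 0.22 (95% interval -0.07 to 0.51) and 0.19 (-0.05 to 0.44), and CCNF one of -0.04 (-0.32 to 0.24). AURKA was at 7.35, 7.05 and 7.56 with LOC550643 and at 7.42, 7.76 and 7.90 with non-silencing siRNA, a difference of -0.37 that was not called (limma adjusted p = 0.266). WEE1, the inhibitory kinase, was at 8.26, 8.38 and 8.82 with LOC550643 and at 7.11, 7.76 and 7.93 with non-silencing siRNA. All LOC550643 arrays lay above all non-silencing arrays, and the difference of 0.89 (SE 0.24), or 1.85-fold, was the ninth highest of all genes but missed the threshold (limma adjusted p = 0.0887). Adjusted for the axis score, WEE1 was at the smaller difference of 0.67 and was called (limma adjusted p = 0.00225), where 334 of all genes were called. Within groups WEE1 followed the axis at 0.96, and taking out the score removes most of its spread, so this call adds little. CDC20 and FBXO5 had differences of 0.21 and 0.28. In all, groups did not overlap for 2 of the 8 genes, CDK1 and WEE1, against 17.0% of all genes. Of the 35 other G2 and M phase genes 0 were called by limma, and the count was 0 in each alternative fit. Of these genes, 29 had positive differences, against 48.1% of all genes, with a median of 0.11. An unadjusted p under 0.05 was found for 6 of them. For comparison, CDC20, at an unadjusted limma p of 0.0448, ranked 1751 of all 14884 genes by p. Of the regulators of CDK1 the phosphatase gene CDC25A rose (0.53).

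With Dcp2 siRNA all 8 genes had positive differences from non-silencing siRNA, between 0.22 and 0.74 log2 units with a median of 0.42, and the arrays did not overlap for 8 of 8, against 22.8% of all genes. Only CDC20 was called, where 1.98% of all genes were called, 1.05% higher and 0.927% lower. CDC20 was at 9.67, 9.59 and 9.58 with Dcp2 and at 8.97, 9.25 and 9.32 with non-silencing siRNA. The difference was 0.43 (SE 0.10, limma adjusted p = 0.0348). Leaving out any 1 of the 3 Dcp2 arrays, or replicate 1 or 2 of the non-silencing group, ended the call (limma adjusted p 0.0782 to 0.168). So did adding the axis score to the fit, where CDC20 was at 0.32 (limma adjusted p = 0.0969) and 0 of the 8 were called. Of all genes, 134 were called in that fit, against 294 without the score. The Dcp2 arrays averaged 7.43 on the axis and the non-silencing arrays -5.54. Since these scores can hold an effect of Dcp2 siRNA, the adjusted fit may have taken out part of it, which was not tested.

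FBXO5 had the largest Dcp2 difference of the family, 0.74, with 6.65, 6.52 and 6.59 in the Dcp2 arrays against 5.34, 5.93 and 6.26 in the non-silencing arrays (limma adjusted p = 0.143). Adding the axis score to the fit put it at 0.30. CCNB1, CCNF and CCNA2 were at 0.43, 0.43 and 0.42 (limma adjusted p = 0.0698, 0.0992 and 0.126), WEE1 at 0.41, AURKA at 0.29 and CDK1 at 0.22. SDs within the Dcp2 group ran from 0.035 (AURKA) to 0.093 (CDK1), against 0.066 (CCNB1) to 0.46 (FBXO5) in the non-silencing group, and were smaller with Dcp2 siRNA for every member but CCNB1. The shared estimate of the spread in the fit does not allow for this inequality. Of the 35 other G2 and M phase genes 1 rose, CENPA (0.69), and 31 had positive differences, against 50.3% of all genes, with a median of 0.19. Elsewhere in the machinery CDC25A rose (0.61) and CDK2, the S phase kinase that cyclin A2 also binds, fell (-0.63), the MuvB subunits LIN37 (0.45) and LIN52 (0.54) rose and RBL2, the p130 subunit of the DREAM complex, fell (-0.68). Of G1 and S phase genes CCNE1 (0.48) rose and TYMS fell (-0.62). Of 18 measured immediate early transcripts, 6 rose and 0 fell with Dcp2 siRNA, led by JUN (1.42), ATF3 (1.41), DUSP1 (1.25) and KLF6 (0.98). The 18 followed the within-group axis at a median correlation of 0.50, whose direction was fixed beforehand, since this list set the sign of the axis. The same list gave 0 calls with LOC550643 siRNA, 1 with DcpS siRNA (JUND, 0.75) and 1 with GAPDH siRNA (MYC, -0.68).

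With GAPDH siRNA none of the 8 genes passed the test against non-silencing siRNA. In limma 0 were called, where 2.0% of all genes were called, 0.726% higher and 1.27% lower, 1 had an unadjusted p under 0.05, and 0 of the 8 were without overlap, against 17.3% of all genes. The differences lay between -0.15 and 0.07 for 7 genes. The exception was WEE1, with an unadjusted p under 0.05 and a difference of 0.61 (limma adjusted p = 0.264), from 8.20, 7.90 and 8.53 in the GAPDH arrays against 7.11, 7.76 and 7.93 in the non-silencing arrays. By p, WEE1 ranked 1302 of all 14884 genes. With the axis score as a covariate WEE1 was at the smaller difference of 0.43 and was called (limma adjusted p = 0.0213), where 495 of all genes were called. The close tie of WEE1 to the axis favours a call in that fit, so this call adds little. The 95% interval was -0.23 to 0.38 for CDK1, -0.23 to 0.35 for CCNA2 and -0.37 to 0.12 for CCNB1, which bounds what these arrays could have missed. Of the other G2 and M phase genes 12 of 35 had positive differences, KIF20A fell (-0.74) and the kinase gene PBK rose (0.55). SLBP fell by 0.98, MCM2 by 0.39 and BTRC, an SCF substrate receptor, by 0.45, while RBL1 rose (0.57).

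The siRNAs were then compared with each other, which leaves the non-silencing arrays out of the difference. The first comparison is LOC550643 against DcpS siRNA. CDK1 was lower with LOC550643 siRNA by 1.12 log2 units (SE 0.14, limma adjusted p = 0.000321), at 46.1% of its DcpS level, and its highest LOC550643 array (8.72) lay well below its lowest DcpS array (9.39). CCNF (-0.67), AURKA (-0.59), CCNA2 (-0.56) and CCNB1 (-0.41) were lower too, with limma adjusted p-values of 0.00562, 0.0215, 0.0237 and 0.0475. These are 5 of 8 genes called lower and 0 higher, where 6.40% of all genes were called, 2.91% lower and 3.49% higher. The arrays did not overlap for 6 of the 8, against 21.9% of all genes. WEE1 went the other way, at 0.78 (limma adjusted p = 0.0709). CDK1 and CCNF passed the test without each array in turn. Only these 2 of the 5 lower calls were kept without LOC550643 replicate 1 or 2, without DcpS replicate 3, where WEE1 was called higher (1.01, limma adjusted p = 0.0246), and with only the 6 compared arrays. AURKA was kept as well without DcpS replicate 1, and CCNB1 missed the threshold after median centring (limma adjusted p = 0.0519).

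Against Dcp2 siRNA, LOC550643 siRNA gave lower CDK1 (-0.84, SE 0.14, limma adjusted p = 0.00465) and AURKA (-0.66, SE 0.14, 0.0185), 2 of 8 genes lower and 0 higher, where 3.20% of all genes were called, 1.56% lower and 1.65% higher. The arrays did not overlap for 5 of the 8, against 22.4% of all genes. The Dcp2 arrays of AURKA lay at 7.95, 7.98 and 8.02, above all 3 LOC550643 arrays. The AURKA call was lost without LOC550643 replicate 1 or 2 or Dcp2 replicate 1, 2 or 3 (limma adjusted p 0.0585 to 0.0934), and that of CDK1 was kept without each array. Against GAPDH siRNA, CDK1 was again lower with LOC550643 siRNA (-0.69, SE 0.14, limma adjusted p = 0.0115), the 1 gene of 8 called, where 4.08% of all genes were called, 1.61% lower and 2.48% higher. It was also the 1 gene of 8 without overlap, against 21.6% of all genes. The GAPDH arrays of CDK1 were at 9.09, 8.88 and 9.18. This call was lost without LOC550643 replicate 1 or 2 (limma adjusted p = 0.0637 and 0.0632) and with only the 6 compared arrays (0.0699). CDK1 was thus called lower with LOC550643 siRNA in each of 4 comparisons, which share the LOC550643 arrays.

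With DcpS against GAPDH siRNA all 3 cyclin genes were higher. CCNF was higher by 0.77 (SE 0.13, limma adjusted p = 0.00201), CCNB1 by 0.73 (SE 0.12, 0.0012) and CCNA2 by 0.72 (SE 0.14, 0.0043), 3 of 8 genes higher and 0 lower, where 5.98% of all genes were called, 3.51% higher and 2.47% lower. The arrays did not overlap for 6 of the 8, against 21.0% of all genes. For CCNB1 the DcpS arrays started at 8.81 and the GAPDH arrays, at 8.15, 7.98 and 8.42, all lay lower. The 3 calls were kept without each array in turn, with only the 6 compared arrays, and without DcpS replicate 1 and non-silencing replicate 1 together. With the axis score as a covariate 7 of the 8 genes were called, AURKA being the exception, and WEE1 was then lower with DcpS siRNA (-0.41). Of all genes, 1407 were called in that fit, against 890 without the score. Of the other G2 and M phase genes 19 of 35 were called higher with DcpS than with GAPDH siRNA and 0 lower.

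Dcp2 against GAPDH siRNA gave higher CCNF (0.57, SE 0.13, limma adjusted p = 0.0279) and CCNB1 (0.55, SE 0.12, 0.0178), 2 of 8 genes higher and 0 lower, where 2.79% of all genes were called, 1.74% higher and 1.05% lower. The arrays did not overlap for 6 of the 8, against 21.6% of all genes. FBXO5 was at 0.89, with the 3 Dcp2 arrays above the GAPDH arrays at 5.77, 5.35 and 5.96, and was not called (limma adjusted p = 0.0754). Neither call was secure when 1 of the compared arrays was left out, in fits that also called fewer of all genes (181 to 400, against 415). The CCNF difference stayed between 0.53 and 0.60 whichever array was left out. The call of CCNF was lost without each of the 6 compared arrays in turn (limma adjusted p 0.0735 to 0.102). It was kept with only these 6 arrays, where 273 of all genes were called. Without DcpS replicate 1 and non-silencing replicate 1 together, CCNF and CCNB1 were both called, where 562 of all genes were called. The call of CCNB1 was lost without replicate 1 or 2 of either group (0.0633 to 0.0956) and with only the 6 compared arrays (0.0666). Between Dcp2 and DcpS siRNA, the pair against decapping enzymes, no member passed the test. In limma 0 of the 8 genes were called, where 5.64% of all genes were called, 2.44% higher with Dcp2 and 3.20% lower, and 1 had an unadjusted p under 0.05, CCNA2 at -0.36 (95% interval -0.65 to -0.07, limma adjusted p = 0.154). By p, CCNA2 ranked only 1783 of all 14884 genes. The arrays did not overlap for 3 of the 8, against 24.0% of all genes. Of the 35 other G2 and M phase genes 30 had negative differences and 4 were called lower with Dcp2 siRNA, namely HMMR (-1.04), BUB1 (-0.44), ECT2 (-0.39) and TOP2A (-0.37), named here after their values were seen. With the axis score as a covariate CDK1 (-0.42) and CCNA2 (-0.50) were called lower with Dcp2 siRNA, where 830 of all genes were called.

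The 8 genes were not a single unit. Over the 15 arrays the correlation of their log2 values had a median of 0.66 over the 28 pairs, and ranged from -0.29 (CDK1 with WEE1) to 0.90 (CCNA2 with CCNB1). The 4 negative pairs all involved WEE1, with CDK1, CCNB1, CCNF and AURKA. After subtraction of group means, 27 of 28 pairs correlated positively, with a median of 0.67, and WEE1 correlated with CDK1 at 0.77. The pairs share arrays and, within groups, the axis described above.

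The closest pairs within groups were CDK1 with CCNA2 (0.95) and WEE1 with FBXO5 (0.93). Because the members of such a pair moved together from array to array, their difference within an array had little spread. The size of such a difference has no meaning between probe sets, and only its change between groups can be read. CDK1 minus CCNA2 was -1.52, -1.58 and -1.44 log2 units in the LOC550643 arrays, between -0.91 and -0.82 in the Dcp2, between -1.01 and -0.90 in the DcpS, between -0.71 and -0.60 in the GAPDH and between -0.76 and -0.61 in the non-silencing arrays. The highest LOC550643 array, replicate 3 at -1.44, therefore lay below the lowest array of any other group, DcpS replicate 1 at -1.01. WEE1 minus FBXO5 was between 2.19 and 2.61 in the LOC550643 arrays, between 1.36 and 1.46 in the Dcp2, between 1.23 and 1.58 in the DcpS, between 2.43 and 2.57 in the GAPDH and between 1.67 and 1.84 in the non-silencing arrays. On this measure LOC550643 and GAPDH siRNA lay above, and Dcp2 and DcpS siRNA below, every non-silencing array. The pairs were picked for their correlation within groups after the values were seen, which favours small spreads, so no test is given.

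**Figure D5:**
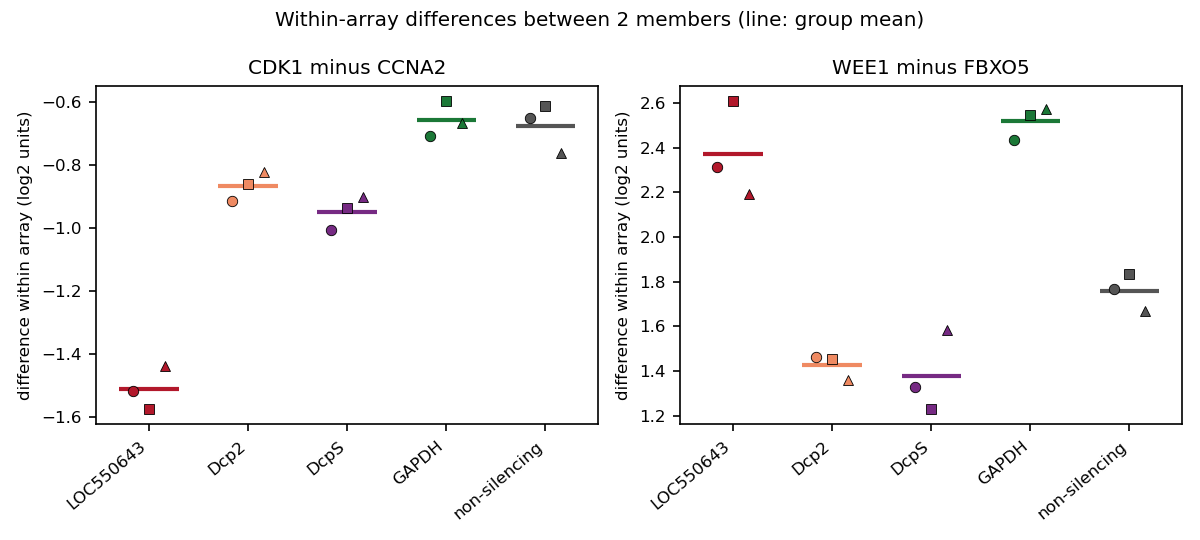
CDK1 minus CCNA2 and WEE1 minus FBXO5 within each array (log2 units), by siRNA, with the group mean as a line. LOC550643 arrays are lowest in the first panel, at -1.58 to -1.44; LOC550643 and GAPDH arrays are above 2.1 and all others below 1.9 in the second.

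Genes with patterns most like those of the members were sought among 6197 other genes with a mean of at least 6 log2 units, by the correlation over the 15 arrays. For the cyclins these included further mitotic genes. CCNA2 was matched most closely by KIF18A (0.95), TCEAL9 (0.94) and CFAP20 (0.93), CCNB1 by CENPA (0.91), PRR11 (0.90) and HDGFL2 (0.90), and CCNF by NDE1 (0.93), KIF2C (0.92) and KIF4A (0.92). KIF18A, KIF2C and KIF4A encode mitotic kinesins. AURKA was closest to ERG28 (0.95), the APC/C ubiquitin-conjugating enzyme UBE2S (0.91) and the APC/C subunit CDC23 (0.90). CDK1 was closest to DLX5 (0.94), SBDS (0.92) and SETD3 (0.92), CDC20 to MYLIP (0.95), PFDN2 (0.95) and AKIRIN2 (0.93), WEE1 to ZNF567 (0.94), CDC37L1 (0.91) and OGA (0.90), and FBXO5 to NDEL1 (0.96), BUD13 (0.95) and LRIG2 (0.95). With the mean of the 8 genes after subtraction of group means, AMD1 (0.98), PRPF38A (0.98), AKIRIN2 (0.97), PARP2 (0.97) and FEM1C (0.96) correlated best, none of them on the cell cycle lists used here. These correlations describe 15 arrays that share the groups and the axis.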

How the data were processed

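Per the submitters' processing notes, which name RMA and the oligo package, the deposited log2 values are RMA summaries by the authors, a method that as usually run corrects background, quantile-normalizes arrays and summarizes probes; versions and build are not given in the sources used here, and the log base was inferred from the range. RMA values show relative levels only. Array medians lay between 4.01 and 4.08. No pair of the 15 arrays was identical. Of 53617 probe sets, 16098 had 1 gene symbol and 37519 were unnamed here. The brightest probe set was taken for each of 14884 genes. Groups and replicate numbers came from sample titles.

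All arrays entered a limma 3.58.1 fit (R 4.3.3) with 1 mean per group and 10 contrasts, two-sided, without a filter. Every same-number correlation of deviations was over 0.1 in 1 contrast of 10, DcpS against non-silencing (0.39, 0.11 and 0.12). There, DcpS replicate 2 correlated better with non-silencing replicate 3 (0.18), so that a pairing by number was not shown. The fit was tested on simulated data.

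The members and lists were chosen with earlier results of these data known. Named were the 8 members, the targeted genes, up to 4 called genes per list and contrast with non-silencing, and the 3 closest genes in pattern. The number of arrays limits the precision. Alternatives are given in the closing section. Figures were drawn with matplotlib 3.10.9.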

Additional observations from a re-analysis of the deposited data

Results flagged for a closer look

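Effects of the siRNAs differed from each other, by a direct limma contrast of both groups with all arrays in the fit, for the following members. CDK1 was lower with LOC550643 than with Dcp2 (-0.84), DcpS (-1.12) and GAPDH siRNA (-0.69). AURKA was lower with LOC550643 than with Dcp2 (-0.66) and DcpS siRNA (-0.59). CCNA2 (-0.56), CCNB1 (-0.41) and CCNF (-0.67) were lower with LOC550643 than with DcpS siRNA. CCNB1 (0.55) and CCNF (0.57) were higher with Dcp2 than with GAPDH siRNA. CCNA2 (0.72), CCNB1 (0.73) and CCNF (0.77) were higher with DcpS than with GAPDH siRNA. The contrasts share groups, and their parts in one another were not tested.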

How the results depend on the processing

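Over 1360 repeats of the member differences under other settings, 1235 kept direction and side of the threshold, 48 passed it newly, 57 no longer passed and 20 changed sign, none of the last called. This total does not measure how stable the calls were, since most differences were uncalled and stayed so. The block, dim filter, probe set averaging, compared arrays, prior and adjustment settings left each difference unchanged and could alter only its p. Of the 57 lost calls, 40 came with 1 array left out. Quantile normalization, median centring and averaging of probe sets moved no count of called members by over 1.5 times. The cause of the other changes was not tested. With the replicate block, called members were 2 for LOC550643 and 2 for Dcp2 against non-silencing (1 each otherwise), other G2 and M phase genes 3 for Dcp2 (1 otherwise), and no other count moved by over 1.5 times. Over all genes the block gave 246 calls for LOC550643 and 436 for Dcp2, against 233 and 294 in the main fit. Of 60 array and group pairs, 20 correlated best with their own number. Without dim genes, Dcp2 gave 2 members and 3 other genes, DcpS 20 other genes (13 otherwise), and Dcp2 against GAPDH 4 members (2 otherwise). Over the 8855 genes kept, the calls in these comparisons were 555, 751 and 601, against 294, 538 and 415 in the main fit. With only the compared arrays, which leaves fewer samples, members were 0 for LOC550643 and Dcp2, 2 for LOC550643 against DcpS (5 otherwise) and 0 for LOC550643 against GAPDH (1 otherwise), and other genes 0 for Dcp2, 1 for DcpS and 0 for GAPDH (2 otherwise). Over all genes the calls in these member comparisons were 53, 39, 446 and 280, against 233, 294, 953 and 608 in the main fit. For DcpS and GAPDH against non-silencing they were 104 and 44, against 538 and 297. Array weights gave 2 members and 2 other genes for Dcp2 (487 of all genes) and 4 members for Dcp2 against GAPDH (683 of all genes). A trended robust prior gave 2 members and 2 other genes for Dcp2 (417 of all genes). It gave 5 members for DcpS, 3 otherwise (655 of all genes). Adjustment over all contrasts gave 2 other genes for Dcp2 (414 of all genes).

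With the axis score as a covariate, members were 2 for LOC550643, 0 for Dcp2, 6 for DcpS and 1 for GAPDH against non-silencing, 2 for LOC550643 against GAPDH, 2 for Dcp2 against DcpS, 5 for Dcp2 against GAPDH and 7 for DcpS against GAPDH, and other genes 22 for DcpS and 4 for GAPDH. Over all genes, in the same order, the calls against non-silencing were 334, 134, 1003 and 495, where the main fit gave 233, 294, 538 and 297. Those between siRNAs were 1091, 830, 559 and 1407, where the main fit gave 608, 839, 415 and 890. Signs turned for WEE1 with Dcp2 (-0.0194), for CDK1 (-0.00229) and CCNA2 (-0.0180) with GAPDH, and for AURKA (-0.0435), WEE1 (-0.0381) and FBXO5 (-0.0931) with Dcp2 against DcpS. Without DcpS replicate 1 and non-silencing replicate 1 together, chosen after seeing the data, members were 0 for LOC550643, 0 for Dcp2 and 0 for DcpS against non-silencing and 4 for Dcp2 against GAPDH, other genes 0 for Dcp2 and 7 for DcpS, and CDK1 (-0.0347), CCNA2 (-0.0643) and CDC20 (-0.0434) with GAPDH changed sign. Over all genes the calls in these member comparisons were 95, 74, 241 and 562, where the main fit gave 233, 294, 538 and 415.

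Leaving out each replicate in turn gave 0 to 1 members for LOC550643, 0 to 1 for Dcp2, 2 to 3 for DcpS and 0 for GAPDH against non-silencing, 1 to 2 for LOC550643 against Dcp2, 2 to 5 for LOC550643 against DcpS, 0 to 1 for LOC550643 against GAPDH and 0 to 2 for Dcp2 against GAPDH, and other genes 0 to 5 for Dcp2, 8 to 19 for DcpS and 0 to 2 for GAPDH. Over all genes, in the same order, the calls against non-silencing were 79 to 202, 41 to 393, 276 to 466 and 139 to 239. Those between siRNAs were 149 to 468, 536 to 863, 304 to 478 and 181 to 400. The main fit gave 233, 294, 538 and 297 against non-silencing and 477, 953, 608 and 415 between siRNAs. Uncalled differences that crossed 0 ranged from -0.205 to 0.0519 for CCNF with LOC550643, from -0.137 to 0.375 for WEE1 with DcpS, and with GAPDH from -0.0347 to 0.158 for CDK1, from -0.0643 to 0.170 for CCNA2, from -0.0434 to 0.132 for CDC20 and from -0.399 to 0.0584 for FBXO5. Dim probe sets have no detection calls in these files, and 3 arrays per group limit the precision.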
